A study of Mus musculus with 24 samples.

Results

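The genes described here are the nuclear-encoded subunits of the mitochondrial respiratory chain and ATP synthase, read from liver mRNA of mice at 2 ages and 6 times of day. They were chosen by name: Nduf genes of the a, b, c, s and v series, Sdha to Sdhd, all Uqcr genes and Cyc1, Cox4 to Cox8 genes, and all Atp5 genes, without entries marked as pseudogenes. This gave 85 genes of the 43629 listed: 37 named for complex I, 4 for complex II, 9 for complex III, 18 for complex IV and 17 for complex V. The mice were of the inbred C57BL/6 strain, all wild type, and were young (about 4 months) or old (about 19 months). Livers were frozen at ZT2, ZT6, ZT10, ZT14, ZT18 and ZT22, where ZT counts hours from lights on, with 2 replicate libraries for each age and time, so 24 libraries in all and 12 per age. The design text says that tissue was collected every 4 h over 2 days, but the labels do not say whether the replicate number marks the day, whether replicates are separate animals or which sex was used. The p-values therefore measure the spread between these samples, which may be technical.

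The respiratory chain passes electrons from NADH (complex I) or succinate (complex II) through ubiquinone, complex III and cytochrome c to oxygen at complex IV, and the proton gradient this builds drives ATP synthase, called complex V. A small part of the subunits is encoded in mitochondrial DNA, and all others are nuclear genes whose proteins are imported. In hepatocytes the chain supplies the ATP for glucose and urea synthesis and reoxidises the NADH made by fatty acid oxidation. NRF1, the ETS factor GABP and the ERR receptors with their PGC-1 coactivators are known activators of many of these genes.

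The name is not an exact guide to function. Ndufa4 is now placed in complex IV, Cox7a2l helps respiratory complexes to associate, and Atp5s and Atp5sl are named for ATP synthase but are not subunits of it. Ndufab1, the mitochondrial acyl carrier protein, is a complex I subunit that the name rule misses. The rule also left out 3 entries marked as pseudogenes of Atp5l, with mean levels of 34.4 TPM (Atp5l-ps1), 1.28 TPM (Atp5l-ps2) and 65.5 TPM (Atp5l2-ps), so reads of Atp5l and its copies may have been divided between near-identical sequences. TPM is a level per transcript length, summed to the same total in each library, that can be set side by side between genes. Of the 85 genes, 80 averaged 1 TPM or more and were tested, and the other 5 were all tissue-restricted complex IV isoforms. The 85 genes together took 1.75% to 2.43% of all TPM in a library.

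The stretches before the start sites of the 5 members that passed the test for a 24 h rhythm are shown first, since they are the members with a called difference across the study's conditions. They are the 120 bases before the start in RefSeq (GRCm38.p6), and capitals mark matches to any of 6 short motifs searched on both strands: the NRF1 core GCATGCGC, the ETS core CCGGAAG, AAGATGGC for YY1, the E-box CACGTG bound by CLOCK and BMAL1, the D-box TTATGTAA and the cAMP response element TGACGTCA.
Atp5s: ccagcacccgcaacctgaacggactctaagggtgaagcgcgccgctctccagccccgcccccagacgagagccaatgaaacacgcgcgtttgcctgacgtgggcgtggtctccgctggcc
Atp5sl: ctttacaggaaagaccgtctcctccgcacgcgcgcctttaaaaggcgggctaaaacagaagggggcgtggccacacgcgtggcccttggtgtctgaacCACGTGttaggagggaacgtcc
Sdhd: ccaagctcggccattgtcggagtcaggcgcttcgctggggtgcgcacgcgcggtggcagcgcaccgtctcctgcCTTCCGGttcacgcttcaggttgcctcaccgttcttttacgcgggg
Ndufv3: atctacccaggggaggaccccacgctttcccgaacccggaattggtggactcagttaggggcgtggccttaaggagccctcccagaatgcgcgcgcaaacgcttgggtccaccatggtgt
Ndufa5: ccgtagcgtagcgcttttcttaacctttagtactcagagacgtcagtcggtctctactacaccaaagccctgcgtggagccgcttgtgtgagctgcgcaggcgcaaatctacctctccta

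In order, they lie at chr12:69724825-69724944, plus strand (Atp5s), chr7:25619294-25619413, plus strand (Atp5sl), chr9:50603850-50603969, minus strand (Sdhd), chr17:31519995-31520114, plus strand (Ndufv3), chr6:24527691-24527810, minus strand (Ndufa5). Atp5sl held an E-box 22 bases before its start and Sdhd an ETS core on the opposite strand 46 bases before its start. Atp5s, Ndufv3 and Ndufa5 held none of these letters in the 250 bases before the start, and for Ndufa5 the nearest RefSeq start lay 323 bases from the start in the deposited files.

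The promoters with the most motifs are shown next, as all 250 bases before the start. These are the members that held the NRF1 core together with at least 1 other motif.
Ndufa11: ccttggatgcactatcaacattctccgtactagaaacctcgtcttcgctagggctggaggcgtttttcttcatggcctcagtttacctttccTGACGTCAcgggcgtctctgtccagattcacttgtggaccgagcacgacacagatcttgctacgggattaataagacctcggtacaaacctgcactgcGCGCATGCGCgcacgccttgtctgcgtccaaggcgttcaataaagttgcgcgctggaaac
Cox6a1: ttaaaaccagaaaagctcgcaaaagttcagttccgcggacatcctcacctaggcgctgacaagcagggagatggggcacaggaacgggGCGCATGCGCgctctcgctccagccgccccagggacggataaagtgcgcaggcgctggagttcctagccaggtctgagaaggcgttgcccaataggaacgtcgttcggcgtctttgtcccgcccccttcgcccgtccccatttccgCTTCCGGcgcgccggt
Atp5l: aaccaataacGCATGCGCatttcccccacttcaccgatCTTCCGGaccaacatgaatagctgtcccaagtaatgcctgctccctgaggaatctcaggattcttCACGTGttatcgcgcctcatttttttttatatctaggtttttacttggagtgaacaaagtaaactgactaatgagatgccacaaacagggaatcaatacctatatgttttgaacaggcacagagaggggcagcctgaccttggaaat

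These lie at chr17:56717512-56717761, plus strand (Ndufa11), chr5:115348959-115349208, minus strand (Cox6a1), chr9:44920743-44920992, minus strand (Atp5l). Ndufa11 held overlapping NRF1 cores on opposite strands 60 and 58 bases before its start and a cAMP response element 158 bases before it. Cox6a1 held overlapping NRF1 cores 162 and 160 bases before its start and an ETS core at 16, and Atp5l held an NRF1 core at 240, an ETS core at 212 and an E-box at 147. Windows were found for 69 of the 85 members (66 by symbol and 3 by a RefSeq synonym), 1 per member. In 7 of them the RefSeq start lay over 300 bases from the start in the deposited files. The windows of all genes were not limited to 1 per gene or to expressed genes, so the shares below are not on the same basis. The NRF1 core was in 8 of 69 member windows (11.6%) against 2.26% of all 32851 RefSeq windows of this length, and the ETS core in 11 of 69 (15.9%) against 6.91%. E-boxes were in 7 member windows (10.1%, 6.02% of all windows), cAMP response elements in 4 (5.80%, 1.55%), the D-box in 1 (1.45%, 0.819%) and the YY1 letters in 0 (1.56% of all windows). No match overlapped a match to another motif. A match describes the letters of the window and no binding was measured.

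Before the comparisons, a few libraries and facts of the whole series need naming. Mapped depth was 0.435 to 0.683 gigabases, or 8.70 to 13.7 M reads of 50 bases, and 15989 to 16690 genes were above 0 in a library. Hepatocyte markers summed to 75452 to 106356 scaled TPM in each library, led by Alb. Old ZT6 replicate 2 held skeletal muscle transcripts, with the 6 markers summing to 379 scaled TPM against at most 6.01 in any other library, and Ckm, Myh4, Tnnc2 and Tnnt3 at 0 in the other 23. Young ZT18 replicate 2 held pancreatic acinar transcripts, whose 9 markers summed to 3864 against at most 14.2 elsewhere. Mitochondrially encoded genes took 3.42% of TPM in old ZT14 replicate 1 and 8.74% in old ZT14 replicate 2, against 10.7% to 17.1% in the other libraries. Values below are TPM scaled by median-of-ratios factors unless another scale is named.

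Most members were abundant mRNAs: 69 of the 80 tested genes had a mean over 100 scaled TPM, and the median of the 80 means was 220. Complex I had the lowest median of gene means at 150, followed by complex II at 247, complex III at 267, complex IV at 291 and complex V at 293. The most abundant gene was Ndufa4, at 571, 1057 and 1788 scaled TPM (lowest, median and highest of the 24 libraries). Within complex I by function, Ndufb9, an accessory subunit of the membrane arm, led at 574 ± 150 in young and 501 ± 95.4 in old (mean ± SD over 12 libraries each). At the other end of that complex by scaled TPM stood Ndufa11, a membrane subunit, at 24.8 ± 2.94 and 23.5 ± 3.66. By coverage per base, divided by mapped gigabases, it was not the lowest: it ranged from 11.1 to 21.3 and Ndufa12 from 4.83 to 9.62. In complex II, Sdha, the flavoprotein that oxidises succinate, had the highest mean (271) and the membrane anchor Sdhc the lowest (72.0). Uqcrq, a small subunit of complex III, had the highest mean there (592), and Uqcrc1, a core protein, the lowest (140.5). That order rests on the mean: the median of Uqcrq was 291 and that of Uqcr11, another small subunit, 497, and Uqcrq was below Uqcr11 in 14 of 24 libraries by scaled TPM and in 24 of 24 by coverage per base. Cox4i1 led complex IV with a mean of 753 scaled TPM and Atp5b, the catalytic beta subunit, complex V with a mean of 716. These first places also depend on the scale. By coverage per base and mapped gigabase, Cox6b1 (335 to 532) was above Cox4i1 (57.7 to 136) and Atp5a1 above Atp5b in every library. On that scale Sdhd was above Sdha in every library but young ZT10 replicate 1. By scaled TPM, Atp5s, with a mean of 4.18, was below the true ATP synthase subunits in every library. Atp5sl, at 10.2 to 23.3, was below all of them except Atp5g1, whose range of 12.2 to 31.0 in 11 libraries overlapped it.

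**Figure D1:**
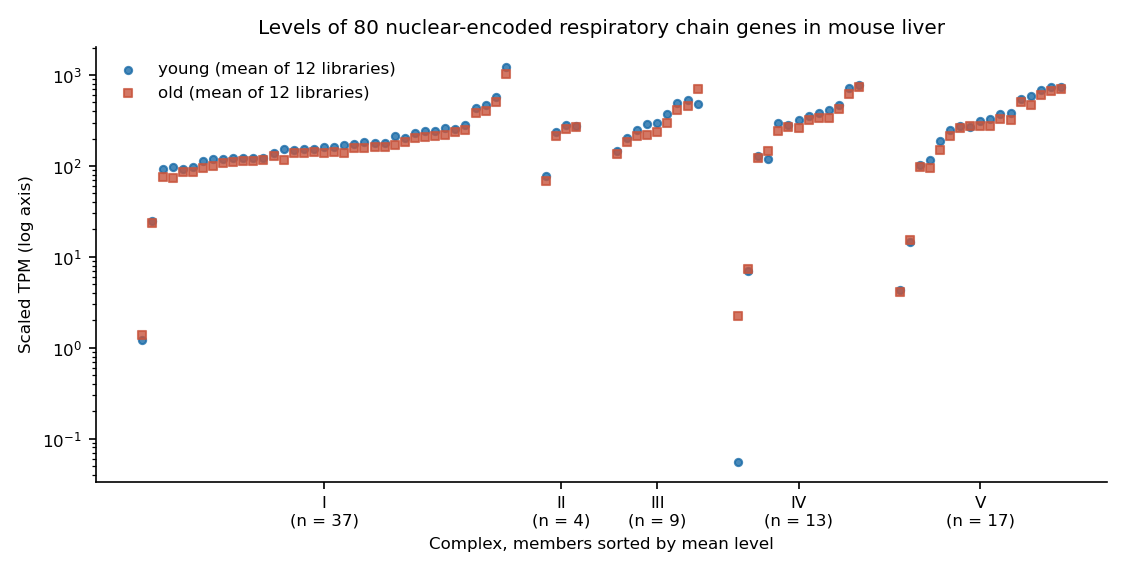
Mean scaled TPM (log axis) of each of the 80 tested members in young (circles) and old (squares) liver, sorted within each complex, n = 12 libraries per age. Most points lie above 100 scaled TPM, and the few low ones are Ndufa4l2 and Ndufa11 (I), Cox8b and Cox7a1 (IV), and Atp5s and Atp5sl (V).

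Where a subunit has tissue isoforms, the libraries held mostly the general form. Cox6a1, the general isoform, ranged from 348 to 586 scaled TPM, whereas Cox6a2, the heart and skeletal muscle form, was listed at 0 in 23 libraries and at 13.95 in old ZT6 replicate 2. Cox8a ranged from 155 to 457, whereas the muscle and brown fat form Cox8b reached 26.3 in old ZT6 replicate 2, stood at 0.666 in young ZT18 replicate 2 and 0.770 in old ZT6 replicate 1, and was listed at 0 in the other 21. Both muscle isoforms were thus highest in the library where the skeletal muscle markers summed to 379. Cox7a2 ranged from 223 to 648, and the muscle form Cox7a1 was listed at 0 in 6 libraries, at 4.88 to 14.5 in 17 and at 22.1 in old ZT6 replicate 2. Cox4i2 (an oxygen-responsive lung form), Cox7b2 and Cox8c (testis forms) were listed at 0 in all 24 libraries, next to Cox4i1 at 511 to 1099 and Cox7b at 178 to 488. Cox6b2, another testis form, was above 0 in 5 libraries and at most 1.28, while Cox6b1 ranged from 489 to 899. Ndufa4l2, the hypoxia-induced relative of Ndufa4, ranged from 0.422 to 2.99. Of the 3 genes for the same mature c subunit of ATP synthase, Atp5g3 was highest with 69.8% to 88.1% of their summed TPM, Atp5g2 gave 8.84% to 13.2% and Atp5g1 1.65% to 20.7%.

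That wide range of Atp5g1 came with 2 separate levels. Atp5g1 was at 12.2 to 31.0 scaled TPM in 11 libraries and at 146 to 220 in the other 13, with none between. Uqcrq was likewise at 188 to 383 in 14 libraries and at 674 to 1430 in 10. The deposited read coverage per base, divided by mapped gigabases, did not separate in this way: it was 7.79 to 17.7 in the low and 13.9 to 20.6 in the high libraries of Atp5g1, and 103 to 184 and 102 to 191 in those of Uqcrq. The levels of Atp5g1 thus spanned 17.99-fold and its coverage 2.64-fold, and those of Uqcrq 7.61-fold and 1.87-fold. The 2 replicates of a group fell on different sides in 7 of 12 groups for Atp5g1 and 6 of 12 for Uqcrq, and both ages held both levels. The ratio of coverage to FPKM, which is 1 value per library for a gene with a fixed effective length, varied by more than 3-fold over libraries in Atp5g1, Uqcrq and Cox6c and by more than 1.5-fold in 15 of the 82 members above 0, with a median of 1.06-fold. Cox6c, a small complex IV subunit, was at 558 in old ZT14 replicate 1 and at 70.7 to 199 in the other 23 libraries, while its coverage per gigabase was 61.6 there and at most 42.8 elsewhere. What makes TPM and coverage differ in these genes was not tested.

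**Figure D2:**
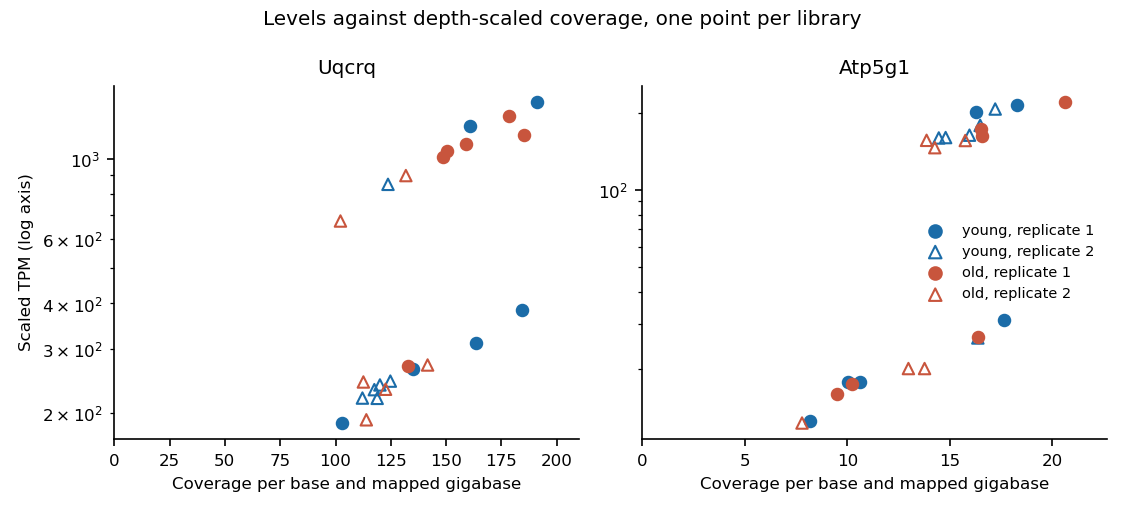
Scaled TPM (log axis) of Uqcrq and Atp5g1 against the deposited coverage per base divided by mapped gigabases, 1 point per library, filled circles for replicate 1, open triangles for replicate 2, blue young and red old. Each gene falls into a low and a high band of TPM at overlapping coverage.

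Age over the whole day was compared next, which asks whether respiratory chain mRNAs differ in level between young and old liver. Most members were slightly lower in old, and 0 passed the test: limma called 0 of 80 lower and 0 of 80 higher at an adjusted p under 0.05, where 0.498% of all 12261 tested genes were lower and 1.14% higher. At an unadjusted p under 0.05, 13 were lower and 0 higher, against 5.7% lower and 5.95% higher of all genes. That count of 13 moved between 6 (without old ZT10 replicate 2) and 24 (without young ZT22 replicate 2) when 1 library was left out. It was 7 or 8 without young ZT2, ZT6, ZT14, ZT18 or ZT22 replicate 1, young ZT10 replicate 2, or old ZT2, ZT18 or ZT22 replicate 2, and 20 or 21 without young ZT14 or ZT18 replicate 2. With the deposited TPM or FPKM unscaled it was 4. By sign alone 73 of 80 were lower in old, against 53% of all genes, and the median log2 difference was -0.15 against -0.01 for all genes. Some other sets were also mostly lower. These were 71.4% of other genes under 800 bases, 83.5% of cytosolic ribosomal protein genes (median length 780 bases) and 90.9% of mitochondrial ones (1224.5 bases). Of other genes of 800 to 2000 bases 58.7% were lower, and of those over 2000 bases 46.1%. The members' median length was 751 bases and their share lower was 91.2%. That share was 90.7% for members under 800 bases and 91.9% for those of 800 bases or more. In bulk tissue, fewer cells of a type and less RNA per cell cannot be told apart. The SE of a member's age difference ran from 0.0576 to 0.803 with a median of 0.123. Immune cell markers differed with age in the same libraries. Plasma cell markers (3 of 3 tested called higher in old) summed to 11.4 to 57.6 scaled TPM in young and 116 to 641 in old, neutrophil markers (2 of 3 called) to 3.48 to 22.5 and 2.63 to 134, and Kupffer cell markers (1 of 6 called) to 207 to 282 and 203 to 622. Old ZT10 replicate 2, where the members' median was lowest of all libraries, had the highest neutrophil and Kupffer cell sums. Other libraries went the other way. Old ZT10 replicate 1 had the second highest Kupffer cell sum (421) and a neutrophil sum of 103, at a members' median of 0.09. Young ZT10 replicate 1, at a members' median of -0.31, had a Kupffer cell sum of 248 and a neutrophil sum of 3.48. The part of these cells in the age differences was not tested.

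By complex, the median log2 differences were -0.15 for complex I (36 of 37 lower by sign), -0.14 for complex II (4 of 4), -0.24 for complex III (8 of 9), -0.14 for complex IV (10 of 13) and -0.17 for complex V (15 of 17). Members of 1 complex share libraries and are not replicates, so these counts describe the group. The 7 core subunits of complex I, which carry its flavin and iron-sulphur clusters, and its 28 accessory subunits were all lower by sign, with medians of -0.14 and -0.17. In complex III the 2 core proteins had a median of -0.21 and the 2 redox subunits -0.18. In complex V the 4 peripheral stalk subunits, which hold the catalytic head still, had a median of -0.18. The 5 subunits of that head and the central shaft together had a median of -0.09, and the 3 small membrane subunits -0.22. Of the 80 members, 19 were lower at 6 of 6 times, and no member had ages that did not overlap. The same counts were not made over all genes, so whether they are unusual is not known.

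**Figure D3:**
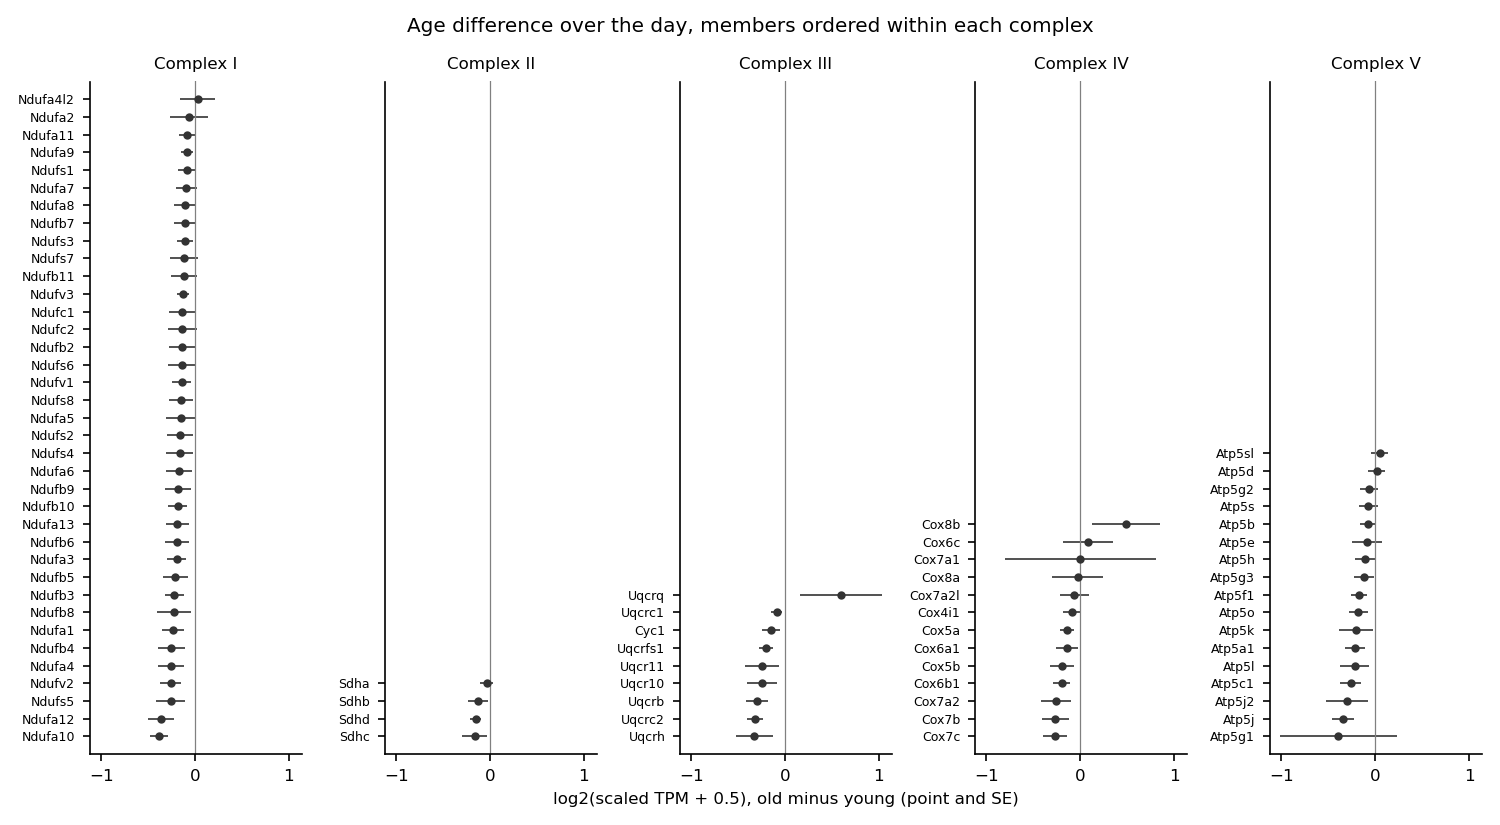
Log2 difference old minus young with its SE for the 80 tested members, ordered within each complex, from 12 libraries per age. Points lie mostly left of 0 and within about 0.4 of it, and the 4 widest error bars belong to Cox7a1, Atp5g1, Uqcrq and Cox8b.

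The members nearest to the threshold illustrate the size. Ndufa10 (chromosome 1, 92439010 to 92473860, GRCm38), an accessory subunit of complex I, was at 100.03, 149 and 204 scaled TPM in young (lowest, median, highest) and at 85.7, 110 and 178 in old. Its ages overlapped, and the log2 difference was -0.38 (SE 0.0976, limma adjusted p = 0.0661). On the coverage scale that difference was -0.06. It passed the limma threshold when 1 of 3 libraries was left out: young ZT22 replicate 1 (adjusted p = 0.0449), young ZT6 replicate 2 (0.0423) or old ZT22 replicate 1 (0.0490). Uqcrc2 (chromosome 7, 120635176 to 120659478), a core protein of complex III, was at 241, 283 and 388 in young and 193, 228 and 293 in old, lower at 6 of 6 times with overlapping ages. Its log2 difference was -0.32 (SE 0.085, limma adjusted p = 0.0770) and -0.17 on the coverage scale, and it was called without young ZT14 replicate 2 (limma adjusted p = 0.0253). Atp5j, a peripheral stalk subunit, was at 449, 565 and 839 in young and 269, 525 and 654 in old (log2 -0.34, limma adjusted p = 0.204), and -0.32 on the coverage scale. The other 10 with an unadjusted p under 0.05 were Ndufa12, Ndufb3, Ndufv2, Ndufv3, Sdhd, Uqcrb, Uqcrfs1 (the Rieske iron-sulphur protein), Cox6b1, Cox7c and Atp5c1 (the central shaft), at log2 -0.13 to -0.36. All 13 were lower on the coverage scale too, by log2 0.06 to 0.32.

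The extremes of each complex by age were as follows. In complex I, Ndufa4l2 had the highest difference (0.03) and Ndufa10 the lowest. Complex II ran from Sdhc (-0.16) to Sdha (-0.04), with Sdha at 274 ± 26.4 in young and 267 ± 21.7 in old. The sign for Sdha turned to 0.07 with the deposited TPM unscaled. Complex III ran from Uqcrh, the hinge protein (-0.33, SE 0.197), to Uqcrq (0.60, SE 0.437), whose difference was -0.04 on the coverage scale. Complex IV ran from Cox7c (-0.27) to Cox8b (0.49), and the Cox8b difference was 0.12 without old ZT6 replicate 2, the library with muscle transcripts. Without old ZT6 replicate 1, which left the library with muscle transcripts alone in its group, it was 0.86. Cox8b met the filter of 1 TPM only through that library, at 26.3 scaled TPM there and at most 0.770 elsewhere. Cox6c was 0.08 higher with old ZT14 replicate 1 and -0.16 without it. Complex V ran from Atp5g1 (-0.39, SE 0.627) to Atp5sl (0.05). With all 24 libraries, none of these passed the limma threshold.

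Scaling moved these values. With the deposited TPM unscaled, the median of all genes moved to 0.09 and that of the members to -0.04, so 56 of 80 members were lower against 26.1% of all genes. Without the library with pancreatic transcripts and old ZT14 replicate 1, the fit gave a member median of -0.23, with 77 of 80 lower. Leaving out old ZT6 replicate 2 as well gave -0.22. In libraries of replicate number 1 alone the median was -0.16, and in those of replicate number 2 alone -0.14.

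At single times, the members' median log2 difference was lowest at ZT14 (-0.34) and nearest to 0 at ZT10 (-0.0017). The medians were -0.12 at ZT2, -0.15 at ZT6, -0.23 at ZT18 and -0.12 at ZT22. No member passed the limma threshold at any single time (0 of 80, smallest adjusted p = 0.248), where 0.555% of all genes did, or for a change of the age difference over times (0 of 80 by limma, against 0.0163% of all genes). At an unadjusted p, 2 members (Ndufa10 and Cox8b) passed the test of age by time, against 442 of all genes (3.6%). Cox8b was at 26.3 scaled TPM in old ZT6 replicate 2, the library with muscle transcripts, and at most 0.770 elsewhere. At ZT14 the old libraries also had the low mitochondrial RNA shares given above, and their part in these differences was not tested.

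Time of day was tested with a 24 h cosine, which asks whether respiratory chain mRNAs follow a daily rhythm in liver. Few members did: 5 of 80 (6.25%) were called on the average of both ages, against 23.9% of all genes, and 0 were called in young (10.7% of all genes) and 2 in old (8.96%). In young, 2 members passed an unadjusted p under 0.05 against 25.1% of all genes. The amplitude given here is the log2 difference between fitted peak and trough. The median amplitude of the 80 members was 0.29 and that of all genes 0.36. The largest averaged amplitude in each complex was that of Ndufa5 (0.75, limma adjusted p = 0.0362) in complex I, Sdhd (0.32, limma adjusted p = 0.0217) in complex II, Uqcrq (0.62, limma adjusted p = 0.72) in complex III, Cox7a1 (2.44, limma adjusted p = 0.176) in complex IV and Atp5g1 (1.496, limma adjusted p = 0.445) in complex V, and only those with an adjusted p under 0.05 were called. Uqcrq and Atp5g1 are the genes with 2 separate TPM levels at overlapping coverage, and Cox7a1 was above 0 in only 18 of 24 libraries.

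Both members named for ATP synthase that are not subunits of it were among the 5. Atp5s peaked at ZT8.5 with an amplitude of 0.56 (limma adjusted p = 0.0106). Its libraries were at 5.603 and 5.75 scaled TPM at ZT10 in young and 2.86 and 3.91 at ZT2, and in old at 5.16 and 5.48 at ZT6 and 2.86 and 3.03 at ZT22. Atp5sl peaked at ZT8.1 with an amplitude of 0.54 (limma adjusted p = 0.0234), reaching 17.9 and 21.6 at ZT10 in young and 18.1 and 23.3 in old, and 10.9 and 12.8 at ZT18 in young and 10.2 and 12.8 in old. At those pairs of times, chosen after seeing the values, the libraries of the high time lay above those of the low time in both genes and both ages.

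The 3 true subunits with a called rhythm had other phases. Sdhd, the membrane anchor of complex II that binds ubiquinone, peaked at ZT17.97 (amplitude 0.32, limma adjusted p = 0.0217), with 303 and 343 at ZT14 and 215 and 266 at ZT10 in young. In old it was at 285 and 286 at ZT18 and 217 and 272 at ZT10. Ndufv3, an accessory subunit beside the flavoprotein, peaked at ZT1.0 (amplitude 0.28, limma adjusted p = 0.0303). In old it was at 127 and 141 at ZT14 and 164 and 195 at ZT22, whereas in young it was at 160 and 188 at ZT14 and 168 and 187 at ZT22, which overlapped. Ndufa5, an accessory subunit of the matrix arm, had the largest amplitude of the 5 (0.75, peak ZT19.4, limma adjusted p = 0.0362). It was at 229 and 383 at ZT18 and 123 and 147 at ZT10 in young, and at 211 and 288 against 132 and 224 in old, where the 2 times overlapped. In old alone, Atp5s (amplitude 0.83, limma adjusted p = 0.0174) and Ndufv3 (0.43, limma adjusted p = 0.0399) were called. In old alone, 1 of these 2 calls was lost without young ZT6 or ZT10 replicate 2, old ZT2, ZT6, ZT10, ZT14 or ZT18 replicate 1, or old ZT10 or ZT14 replicate 2.

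**Figure D4:**
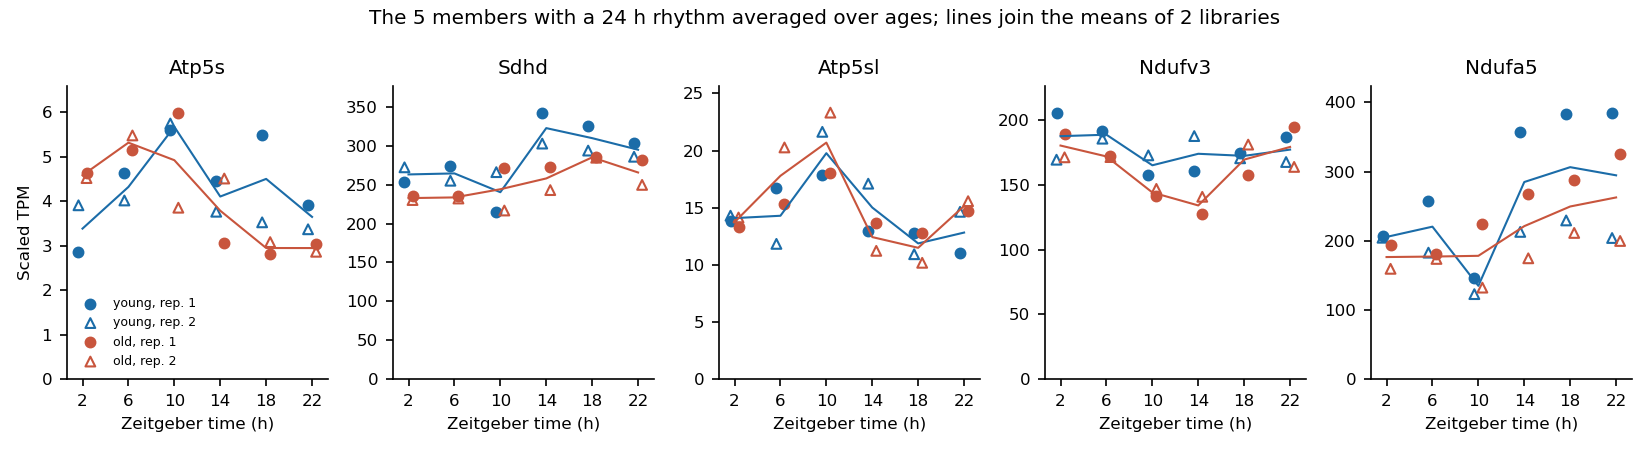
Scaled TPM of the 5 members with a called rhythm averaged over ages by zeitgeber time, 1 point per library (filled circles replicate 1, open triangles replicate 2, blue young, red old), with lines through the means of 2 libraries. Atp5s and Atp5sl are highest around ZT6 to ZT10, while Ndufa5 and Sdhd are lowest at ZT10 in young and higher from ZT14 on.

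Leaving out single libraries moved these calls. Those of Sdhd and Atp5s held in all 24 such fits. Ndufa5 lost its call in 9: without young ZT10, ZT18 or ZT22 replicate 1, young ZT6 or ZT10 replicate 2, old ZT18 or ZT22 replicate 1, or old ZT6 or ZT10 replicate 2. Ndufv3 lost it in 7: without young ZT2, ZT10 or ZT14 replicate 1, old ZT2, ZT14 or ZT22 replicate 1, or old ZT14 replicate 2. Atp5sl lost it in 2, without young or old ZT10 replicate 2. The count fell to 3 without young ZT10 replicate 1, young ZT10 replicate 2, old ZT22 replicate 1 or old ZT10 replicate 2, and also without young ZT18 replicate 2 and old ZT14 replicate 1 together. With libraries of replicate number 1 alone, 1 member (Ndufv3) was called, and with replicate number 2 alone 0, though each such fit has only 12 libraries and called 6.25% and 6.17% of all genes. A difference in rhythm between ages was called for 0 of 80 members and 0% of all genes by limma, with 1 member (Atp5s) and 430 of all genes at an unadjusted p under 0.05.

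Most fitted peaks fell late in the cycle. The fitted peak of the averaged rhythm lay between ZT16 and ZT24 for 66 of 80 members, against 36.4% of all genes, a window chosen after seeing the peaks. Since 75 of the 80 were not called, these peaks are a description only, and the members share libraries. With the deposited TPM unscaled the count was 37 of 80, against 20.5% of all genes. Among other genes with transcripts under 800 bases, 64.2% peaked in that window, and of cytosolic ribosomal protein genes 82.4%.

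Library by library, the members' median deviation differed between replicate numbers within most groups. In young replicate 1 the median deviation of the 80 members from their own means was 0.09, 0.27, -0.31, 0.41, 0.49 and 0.45 (log2) from ZT2 to ZT22. In young replicate 2 it stayed between -0.16 and -0.05 at all 6 times. In old liver it was -0.02 to 0.23 in replicate 1 and -0.45 to -0.14 in replicate 2. Replicate 2 was below replicate 1 in 11 of 12 groups, the exception being young ZT10. The dip at ZT10 and the high values from ZT14 to ZT22 in young are thus found in replicate 1 and not in replicate 2.

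**Figure D5:**
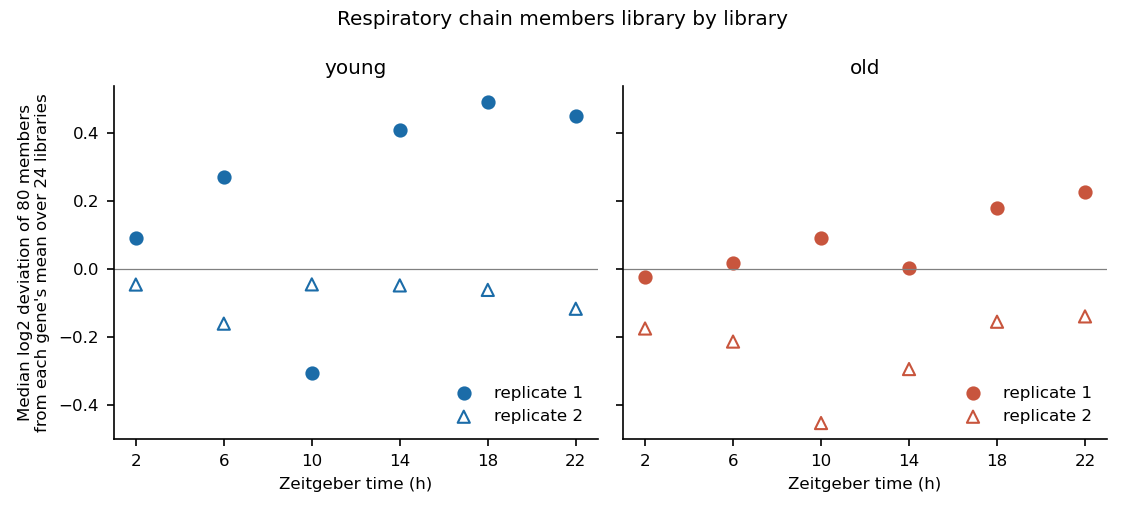
Median log2 deviation of the 80 tested members from each gene's mean over 24 libraries, by zeitgeber time, for young (left) and old (right), 1 point per library. Open triangles (replicate 2) lie below filled circles (replicate 1) at each time except young ZT10.

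A test of the replicate number beside the 12 groups, added after seeing the data, called 52 of 80 members lower in replicate 2 and 0 higher, against 14.7% lower and 15.5% higher of all genes. The median log2 difference, replicate 2 minus 1, was -0.29, and 71 of 80 were lower by sign. By complex, the calls were 26 of 37 (I), 2 of 4 (II), 5 of 9 (III), 9 of 13 (IV) and 10 of 17 (V). Cox8a (chromosome 19, 7215158 to 7217616), a small subunit of complex IV, had the smallest p: replicate 1 was at 175, 387 and 457 scaled TPM (lowest, median, highest of 12) and replicate 2 at 155, 184 and 197 (log2 -0.97, SE 0.109, limma adjusted p = 0.000378). Young ZT10 replicate 1, at 175, was the only replicate 1 library of Cox8a within the range of replicate 2. Cox6a1 was at 410, 489 and 586 in replicate 1 and 348, 387 and 443 in replicate 2 (log2 -0.37). Some larger subunits were not called: Sdha was at 229, 250.4 and 302 in replicate 1 and 257, 289.8 and 307 in replicate 2 (log2 0.13, limma adjusted p = 0.0909), and Ndufa9 and Uqcrc1 differed by log2 -0.02 and -0.03.

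Transcript length moved with this difference. Of the members under 800 bases, 32 of 43 were called lower in replicate 2 (median log2 -0.35, 41 lower by sign). Of the longer ones, 20 of 37 were called lower (-0.24, 30 lower by sign). Across the 80 members, Spearman's rho of length with the replicate difference was 0.38, where the points share libraries. Other genes under 800 bases had 237 of 500 called lower (median -0.30), those of 800 to 2000 bases a median of -0.13 and those over 2000 bases a median of 0.12. Cytosolic ribosomal protein genes had 59 of 85 called lower (-0.39) and mitochondrial ribosomal protein genes 45 of 77 (-0.26). Red cell markers were all 3 called lower in replicate 2, with summed levels of 768 to 2395 in replicate 1 and 693 to 1342 in replicate 2, and their part in the result was not tested. What the replicate number marks is not given in the labels, so sampling day, animals and library preparation cannot be told apart. With the deposited TPM unscaled, the call count was 28 lower and 2 higher, with quantile normalization 29 and 2, and with TPM recomputed without mitochondrially encoded genes 32 and 2.

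Genes around the chain were read from lists. Of 16 complex I assembly factors, Ndufaf6 was the 1 gene of the 111 listed genes around the chain that fell with age, from 23.96 ± 4.19 to 17.9 ± 4.03 scaled TPM (log2 -0.42, limma adjusted p = 0.0370). None of those listed was called higher with age. By the same limma rule, 0.498% of all genes were called lower in old and 1.14% higher. A single call among 111 thus does not set these lists apart from all genes. The 13 mitochondrially encoded subunits were all lower in old by sign, at a median of log2 -0.51, with 0 called by limma and 9 at an unadjusted p under 0.05, and with a median of -2.09 at ZT14 against -0.32 to -0.01 at the other 5 times. The ZT14 value moves with the low mitochondrial shares of the 2 old ZT14 libraries. The mitochondrial ribosomal protein genes had a median of -0.14, near that of the members, and the cytosolic ones -0.08.

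Rhythms were called in several of these lists, at shares above and below the 23.9% of all genes called by the same limma rule. Complex IV assembly had 9 of 25 called, led by Sco2, a copper chaperone (amplitude 1.53, peak ZT2.1, limma adjusted p = 8.99e-08), and Cox10, which makes the haem of complex IV (0.63, ZT14.3). Complex I assembly had 3 of 16, among them Dmac1 (0.58, ZT20.3) and Ecsit (0.36, ZT16.8). Complex II assembly had 1 of 4, Sdhaf1 (0.53, ZT17.8), and those of complexes III and V had 0 of 6 and 0 of 5, against 23.9% of all genes by the same limma rule. Of 14 subunits and partners outside the name rule, 4 were called, among them Etfdh, which feeds electrons from fatty acid oxidation to ubiquinone (0.53, ZT4.1), and Cycs, cytochrome c (0.76, ZT19.0). Of 12 regulators 4 were called, among them the nuclear receptor Esrra (0.78, ZT14.5) and Yy1 (0.44, ZT8.1). Of 16 matrix enzymes of the citric acid cycle 5 were called, among them Idh3a, a subunit of the NAD-dependent isocitrate dehydrogenase (0.73, ZT14.5). The 13 mitochondrially encoded subunits had 0 called.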

How the data were processed

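Liver mRNA was measured in 24 libraries by single-end sequencing of 50-base reads from a strand-specific oligo-dT preparation, per the labels' protocols. HISAT2 and StringTie with GRCm38 are named in the submitters' processing notes, and their versions are not given in the sources used here. The deposited files hold, per gene, TPM and FPKM (levels per length and depth) and read coverage per base, all made by the authors. Mapped depth was taken from the ratio of coverage to FPKM, and the files hold no counts, so no count test or counting interval was possible.

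TPM was divided by median-of-ratios factors from 13270 genes above 0 in all libraries, and log2(scaled TPM + 0.5) was fitted for the 12261 genes averaging 1 TPM or more with limma 3.58.1 in R 4.3.3 (moderated variance with a trend). Fold changes are on this scale, which understates changes of low genes. One model had the 12 groups of age and time, and another a 24 h cosine per age. P-values were adjusted by Benjamini-Hochberg over all tested genes, at a threshold of 0.05, and the code was tested on simulated data. Levels are mean ± SD. Named with values are members past a threshold (at most 10 per direction), in each complex those with the highest and lowest level, highest and lowest age difference and largest rhythm amplitude, isoform families, and up to 2 called genes per list and direction. Members named at an unadjusted p, those named in the replicate comparison and in leave-one-out fits, Ndufb9, Ndufa11, Cox6c and the promoters shown were chosen after their values were seen. The members and lists were chosen with earlier results of these data known. Alternatives were other scalings, pseudocounts, filters, a replicate block and leaving out libraries. The coverage scale, single replicate numbers, leaving out 3 libraries together and the test of the replicate number were added after seeing the data. Promoters came from RefSeq GRCm38.p6. Of 164 listed genes, 157 matched by name and 7 by another GENCODE symbol. Overlapping same-strand genes of at least 1 TPM were found for 3 members (Atp5o, Ndufc2 and Ndufb2).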

Additional observations from a re-analysis of the deposited data

How the results depend on the processing

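The median age difference of the members kept its sign in all settings, between -0.21 and -0.11 with 1 library left out. Whether the replicate numbers pair the libraries was not settled: deviations of same-numbered libraries correlated above 0.1 in 52 of 66 pairs of groups (-0.158 to 0.451, median 0.186), and 11 of 12 groups correlated best, on average, with their own number, a hint from the data and not from the labels. With the replicate block, 1 member (Ndufv2, -0.26, limma adjusted p = 0.0343) was lower in old, 30 in place of 13 were lower at an unadjusted p, 10 had a called averaged rhythm and 2 a called rhythm in young. Calls over all genes rose with it too: 133 of 12261 were lower and 220 higher in old, and 30.1% had a called averaged rhythm. At single times, 1 member was called without the 3 libraries that stand apart. Averaged rhythm gave 3 members with quantile normalization, 3 without 2 and 3 without 3 of those libraries, 1 in replicate number 1 alone and 0 in replicate number 2 alone. Rhythm in old gave 1 with FPKM, quantile normalization, a filter of 5 TPM, no trend, or 2 libraries left out, and 0 with 3 left out or in either replicate number alone. Calls lower in replicate 2 numbered 28 with unscaled TPM, 29 with quantile normalization and 32 without mitochondrially encoded genes, and calls higher numbered 2 in each of these, 1 with FPKM and 1 without 3 libraries.

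With 1 library left out, age calls ranged from 0 to 1 in each direction, single-time and age-by-time calls from 0 to 1, averaged rhythm from 3 to 6, rhythm in old from 1 to 2, and replicate 2 calls from 41 to 60 lower and 0 to 1 higher. Some small age differences turned sign. Ndufa4l2 was -0.0331 with quantile normalization, -0.0309 without 2 libraries, -0.0624 in replicate number 2 alone and -0.0639 to 0.123 with 1 left out. Sdha was 0.0746 with unscaled TPM, 0.0326 with FPKM, 0.0315 with quantile normalization and 0.0378 without mitochondrially encoded genes. Cox6c was -0.21 without 2 libraries, -0.22 without 3, -0.12 in replicate number 2 alone and -0.157 (without old ZT14 replicate 1) to 0.322 with 1 left out, with -0.00836 without young ZT22 replicate 2. Uqcrq was -0.0408 by coverage, Atp5g1 0.51 in replicate number 1 alone and Atp5sl -0.0276 without 3 libraries. The cause was not tested.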
